A study of Mus musculus with 6 samples.

Results

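The set described here holds 40 genes of the cell division cycle, taken by their symbols from the 31053 genes counted in each single-cell library of mouse inguinal white adipose tissue (iWAT). It was split by textbook role into 18 S-phase members and 22 G2/M members. Each symbol matched 1 row of the count matrices. The S-phase members were 12 genes of the replication fork and origin, 4 genes of nucleotide supply and uracil repair and 2 G1/S regulators. The G2/M members were 5 mitotic cyclins and CDK1 partners, 14 genes of the spindle, the kinetochore and the mitotic kinases, and 3 chromosome proteins.

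The cells were CD45-depleted, live-sorted stromal vascular cells from the iWAT of male C57BL/6 mice, young (9 weeks) or aged (57 weeks), profiled to follow how age alters the cells that form beige adipocytes in the cold. All mice first spent a period at 30 °C. One library per age then came from mice kept at 30 °C (thermoneutrality, TN), mice moved to 6 °C for the last 3 days (3D) and mice held at 6 °C for 14 days (14D), which gives 6 libraries with 1 per age and temperature. The number of mice behind a library is not given in the sources used here, so a p-value measures the spread between these libraries only, and any difference within a single temperature has no replicate.

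A dividing cell copies its DNA in S phase and separates the copies in mitosis. Genes for replication factors are transcribed from late G1, largely through E2F sites, and genes for mitotic factors peak in G2 and M through paired CHR and CCAAT elements bound by the DREAM and MuvB complexes and NF-Y. Most adult fibroblastic adipocyte stem and progenitor cells (ASPCs) are quiescent. Several S-phase genes also act in DNA repair, so their transcripts are found in cells that do not divide, while Mki67, Top2a and Cdk1 are classic marks of cells in cycle.

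The 68103 barcodes held 458234660 unique molecular identifiers (UMIs), from 52068837 in the aged 14D library to 88508349 in the young TN library. Of these barcodes 57326 passed the limits on depth, genes and mitochondrial share, and 51467 were gated as fibroblasts, 4001 as endothelial cells, 517 as SMC/pericytes, 114 as Schwann cells and 241 as immune cells by at least 3 detected markers of 1 class. Pdgfra was detected in 80.8% of gated fibroblasts and 3.60% of gated endothelial cells, and Pecam1 in 2.98% and 90.0%. Fibroblasts were further gated as Dpp4+ (21510 cells), Icam1+ preadipocytes (14781) and Cd142+ (8927). Dpp4+ cells were 12489 of 25412 young and 9021 of 26055 aged fibroblasts, and Icam1+ preadipocytes 6463 and 8318. Sums over all fibroblasts therefore differ in class make-up between the ages. How far this entered the age effects in all fibroblasts was not tested. The aged 14D library stood apart: its gated fibroblasts had a median of 2740 UMIs against 7082 to 10249 in the other 5 libraries, and 12.9% of them held at least 2 endothelial markers against 1.00 to 2.57%. Without this library the number of members called for age was 4 in place of 5 in all fibroblasts, 5 in place of 7 in Dpp4+ fibroblasts and 2 as before in Icam1+ preadipocytes. In all fibroblasts Mki67 and Hmgb2 lost their calls without it, so the 4 were not all among the 5. The libraries shared 524 barcode sequences.

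In gated fibroblasts 3 members were called lower and 2 higher with age. Top2a (the DNA topoisomerase that untangles sister chromatids), Mki67 (the Ki-67 protein that coats mitotic chromosomes) and Tpx2 (a spindle assembly factor that activates Aurora A) were lower in aged libraries. Cdc6, which loads the MCM helicase onto origins, and Hmgb2, an abundant chromatin protein, were higher. These 5 of the 38 members over the low-count filter passed edgeR's quasi-likelihood test at an adjusted p of 0.05, with temperature in the model. That share of 13.2% was near the 9.76% called of all 14757 genes tested. Bub1 and E2f8, with 30 UMIs each in fibroblasts, did not pass the filter, while the 5 called members were over its cutoff in all 6 libraries. On GRCm38 (GENCODE vM21) the 5 genes span chr11:98992943-99024189 (minus strand) for Top2a, chr7:135689784-135716361 (minus strand) for Mki67, chr2:152847964-152895321 (plus strand) for Tpx2, chr11:98907801-98923940 (plus strand) for Cdc6 and chr8:57511907-57515999 (plus strand) for Hmgb2.

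Top2a reached 295 UMIs in the young TN library, 76 in 3D and 184 in 14D, and 37, 31 and 44 in the aged TN, 3D and 14D libraries. Scaled to counts per-million (CPM, with TMM library sizes), this was 3.86, 0.996 and 2.45 in young and 0.676, 0.490 and 0.942 in aged libraries. The lowest young value, that of the 3D library, lay just above the highest aged one. The means were 2.44 ± 1.43 CPM in young and 0.703 ± 0.227 in aged libraries (SD, n = 3 each), a log2 fold change of -1.68 ± 0.30 (SE; edgeR adjusted p = 0.0243).

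Mki67 gave 187, 43 and 131 UMIs in the young TN, 3D and 14D libraries and 22, 20 and 22 in the aged ones. Its level was 1.59 ± 0.951 CPM in young and 0.396 ± 0.0775 in aged fibroblasts (SD, n = 3 each), a log2 fold change of -1.84 ± 0.34 (SE; edgeR adjusted p = 0.0269). As for Top2a, the young libraries were spread widely and the aged ones lay close together. Tpx2 went from 1.05 ± 0.438 to 0.381 ± 0.173 CPM (SD, n = 3 each), with 114, 47 and 78 UMIs in young and 17, 16 and 27 in aged libraries and a log2 fold change of -1.45 ± 0.32 (SE; edgeR adjusted p = 0.0430).

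Cdc6 moved the other way, at 3.22, 2.94 and 3.42 CPM in the young TN, 3D and 14D libraries and 6.82, 5.06 and 4.73 CPM in the aged ones. Every aged library was above every young one, with a log2 fold change of 0.78 ± 0.14 (SE; edgeR adjusted p = 0.0242). In fibroblasts the ages did not overlap for 15 of the 38 members tested, and for 23.1% of all 14757 genes. Hmgb2 was the most abundant member by UMIs, with 24108 in fibroblasts. It stood at 66.6, 55.7 and 45.4 CPM in young and 77.5, 70.3 and 57.3 CPM in aged libraries, so the ages overlapped, but the aged library was the higher at each of the 3 temperatures (log2 fold change 0.30 ± 0.05, SE; edgeR adjusted p = 0.0250).

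**Figure D1:**
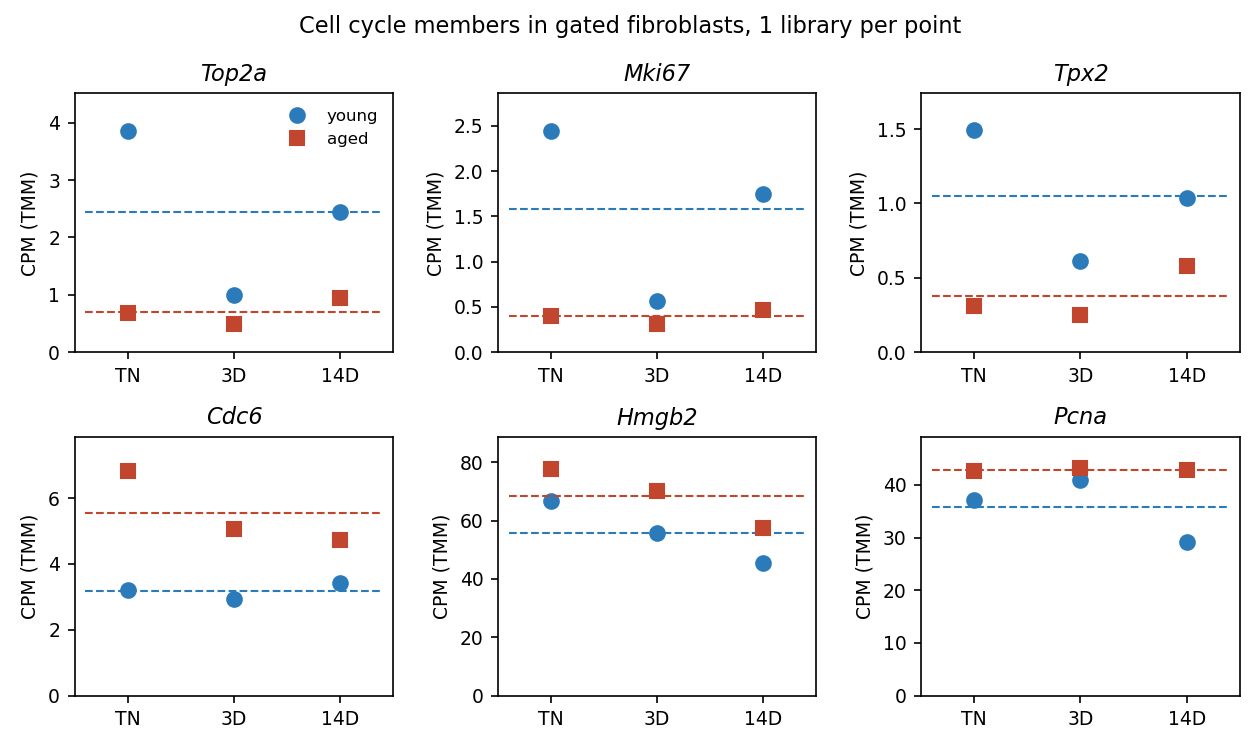
CPM in gated fibroblasts (y, from 0) by temperature (x) for 6 members, 1 point per library, blue circles young and red squares aged, with dashed lines at the mean of 3 libraries. Top2a, Mki67 and Tpx2 are highest in young TN and lowest among young libraries in 3D, Cdc6 is higher in all 3 aged libraries, and Pcna, which did not pass the test, is drawn for comparison.

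The count of 5 rested on the temperature term and on single libraries. It was 0 without that term, 2 without the young 3D library, 1 without the aged 3D library and 8 with DESeq2, and each of the 5 lost its call without at least 1 library. Mki67 was not called without young TN, young 14D, aged TN or aged 14D (highest adjusted p = 0.0721), Tpx2 not without either TN or either 3D library (0.149), Top2a not without aged 3D (0.0555), Cdc6 not without either 3D library (0.132) and Hmgb2 not without any of the 3D or 14D libraries (0.165). With each cell thinned to 2000 UMIs the log2 fold change of Top2a was -0.58 (adjusted p = 0.378), and in fibroblasts with at most 1 marker of another class that of Mki67 was -1.16 (adjusted p = 0.115) and that of Tpx2 -0.55 (adjusted p = 0.225).

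The other members of each role set these genes in context. Of the 21 G2/M members tested, 19 had a log2 fold change below 0, and the median was -0.82 against -0.00 over all genes. An unadjusted p under 0.05 by edgeR was found for 13 of the 21, 12 lower and 1 higher. Over all genes this held for 4155 of 14757 in either direction. Only the 3 named above were called lower. Among the mitotic cyclins and CDK1 partners, Cdk1, the kinase that drives entry into mitosis, gave 70, 28 and 48 UMIs in young libraries and 0, 3 and 10 in aged ones (edgeR adjusted p = 0.0572). It was over the filter's cutoff in all 3 young libraries but in 1 aged one, so it was tested because of the young libraries, and its fitted fold change is not given. Ccnb1, the cyclin B1 partner of that kinase, was at 2.08, 2.37 and 1.43 CPM in young and 1.83, 1.38 and 0.856 CPM in aged libraries (edgeR adjusted p = 0.112). Cks2, a small CDK-binding protein, was at 14.3, 11.5 and 12.1 CPM in young and 15.4, 12.9 and 12.1 CPM in aged libraries (edgeR adjusted p = 0.399). The ages overlapped for both Ccnb1 and Cks2, while the highest aged Cdk1 count was under the lowest young one.

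Of the spindle and kinase role, Ube2c, the ubiquitin-conjugating enzyme of the anaphase-promoting complex, missed the threshold narrowly (log2 fold change -1.11 ± 0.26, SE; edgeR adjusted p = 0.0513). The role's 2 most abundant members were Cenpa, the centromeric histone, and Nusap1, a spindle-associated protein. Cenpa was at 2.18, 2.04 and 2.04 CPM in young and 1.88, 1.42 and 2.01 CPM in aged libraries (edgeR adjusted p = 0.357), and Nusap1 at 2.52, 1.47 and 2.09 CPM in young and 1.61, 1.42 and 1.78 CPM in aged libraries (edgeR adjusted p = 0.293). The young and aged ranges of Nusap1 overlapped, while those of Cenpa did not.

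The S-phase members lay on both sides of 0. Of 17 tested, 11 had a log2 fold change above 0, with a median of 0.12, and Cdc6 alone was called. Pcna, the sliding clamp of the replication fork, gave 37.2, 41.0 and 29.2 CPM in young and 42.7, 43.1 and 42.9 CPM in aged fibroblasts (edgeR adjusted p = 0.126). Mcm4, a helicase subunit, gave 12.8, 12.3 and 11.5 CPM in young and 12.7, 13.3 and 11.8 CPM in aged ones (edgeR adjusted p = 0.671). The aged libraries were thus nearly level for Pcna and above every young one, and for Mcm4 the ages overlapped.

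Rrm1, the large subunit of ribonucleotide reductase, was at 20.1, 18.8 and 18.9 CPM in young and 19.8, 24.2 and 26.3 CPM in aged libraries (edgeR adjusted p = 0.138). Tyms, which makes thymidylate, was at 7.63, 7.14 and 7.30 CPM in young and 6.54, 7.21 and 8.69 CPM in aged libraries (edgeR adjusted p = 0.944). The ages overlapped for both. The G1/S cyclin gene Ccne2 stood at 0.562, 0.419 and 0.906 CPM in young and 0.548, 0.474 and 0.728 CPM in aged libraries (edgeR adjusted p = 0.880). E2f8, a repressor among the E2F factors, gave 7, 4 and 9 UMIs in young and 3, 5 and 2 in aged libraries.

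The promoter sequences of 3 called members and of a helicase gene are shown because these regions carry the elements named above, and because Hmgb2 and Top2a share them while their age effects had opposite signs. A RefSeq promoter (GRCm38.p6) was matched for 34 of the 40 members, and the 250 bases before the annotated start were searched on both strands for the CHR word TTTGAA and its known variant form, written as TTCGAA here, for the NF-Y box that is spelled CCAAT from its name, and for 4 E2F words (TTTGGCGC, TTTCCCGC, TTTGCCGC and TTTCGCGC). Capitals mark every match. Top2a is at chr11:99024190-99024439 on the minus strand, Mki67 at chr7:135716380-135716629 on the minus strand, Hmgb2 at chr8:57511593-57511842 on the plus strand and Mcm6, a subunit of the MCM helicase, at chr1:128359706-128359955 on the minus strand. None of these 4 windows overlapped an annotated exon of GENCODE vM21. Of all 34 matched windows 16 did, and the counts of promoters with each word include them.

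Top2a: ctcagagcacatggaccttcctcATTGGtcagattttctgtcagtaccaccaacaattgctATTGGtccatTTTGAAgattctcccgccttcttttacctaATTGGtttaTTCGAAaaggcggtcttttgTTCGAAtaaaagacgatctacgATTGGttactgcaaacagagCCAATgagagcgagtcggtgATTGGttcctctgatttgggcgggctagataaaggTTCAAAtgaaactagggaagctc
Mki67: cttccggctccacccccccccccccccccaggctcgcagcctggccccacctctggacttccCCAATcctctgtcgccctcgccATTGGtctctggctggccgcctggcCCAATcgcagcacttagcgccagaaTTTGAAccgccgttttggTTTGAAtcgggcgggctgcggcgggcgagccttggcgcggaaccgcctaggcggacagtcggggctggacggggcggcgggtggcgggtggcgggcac
Hmgb2: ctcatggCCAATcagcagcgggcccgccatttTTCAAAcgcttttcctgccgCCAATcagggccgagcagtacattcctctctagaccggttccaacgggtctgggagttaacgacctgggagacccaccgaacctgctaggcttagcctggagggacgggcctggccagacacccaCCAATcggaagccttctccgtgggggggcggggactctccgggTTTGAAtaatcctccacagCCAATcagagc
Mcm6: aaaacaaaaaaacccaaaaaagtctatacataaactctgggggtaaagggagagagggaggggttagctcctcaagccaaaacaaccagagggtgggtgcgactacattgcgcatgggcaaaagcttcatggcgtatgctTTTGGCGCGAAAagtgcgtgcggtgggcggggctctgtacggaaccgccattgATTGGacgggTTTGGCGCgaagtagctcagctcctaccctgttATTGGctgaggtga

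The Top2a window held 4 CHR and 6 CCAAT words, the Mki67 window 2 and 3, and the Hmgb2 window 2 and 4. The Mcm6 window held 3 E2F words, of which the first 2 share the letters GCGC, with 2 CCAAT and no CHR words. CHR words were found in 8 of 19 G2/M promoters and 3 of 15 S-phase promoters, against 17.1% of all 32851 promoters. CCAAT was found in 17 of 19 and 11 of 15, against 33.8% of all, and an E2F word in 1 of 19 and 3 of 15, against 1.86% of all. These are counts of letters, not of bound sites. Tpx2, Mcm4, Ccna2, Ccne2, Gins2 and Aurkb were not matched.

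The G2/M members were then counted in each cell. To set cells of different depth side by side, each was thinned to 2000 UMIs, and cells with fewer were left out, which removed 36.9% of the gated fibroblasts of the aged 14D library, 0.972% of those of aged TN and none of the others. Of the 47686 remaining fibroblasts, 84.9% held no G2/M member, 14.4% held 1 and 311 cells held 2. Only 13 cells held 3 or 4, no cell held 5, and 15 cells held between 6 and 15 of the 22 members, with a median of 11. The set of 15 was therefore the same for any cut from 5 to 6 members at this depth.

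**Figure D2:**
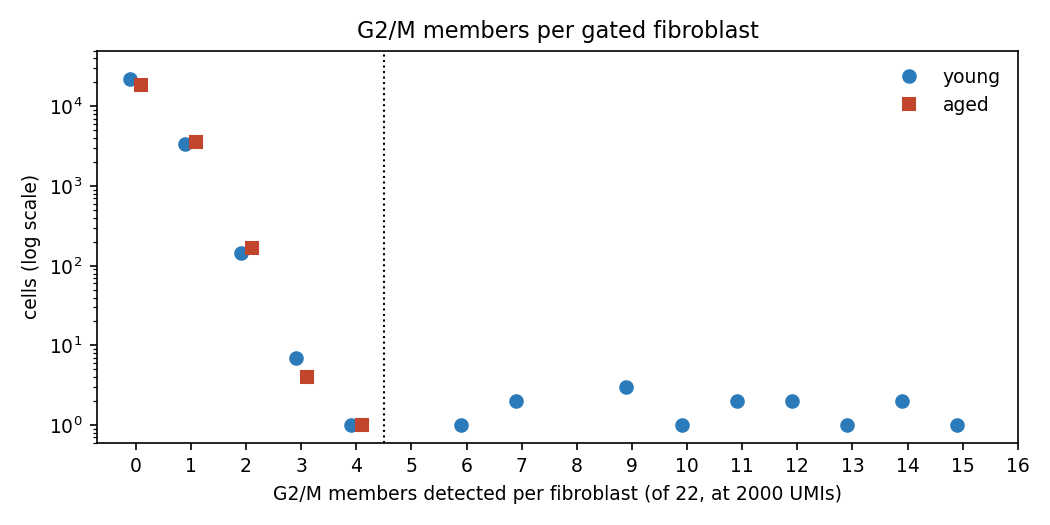
Number of gated fibroblasts (y, log scale; values of 0 not drawn) by how many of the 22 G2/M members were detected after thinning to 2000 UMIs (x), young circles and aged squares, with a dotted line at the cut of 5. Both ages fall from 21916 and 18563 cells at 0 members to 1 cell at 4, and the 15 cells at 6 or more are all young.

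All 15 came from young libraries, 7 of 7297 cells in TN, 1 of 8670 in 3D and 7 of 9445 in 14D. As shares these were 0.0959% (exact 95% interval 0.0386 to 0.198%), 0.0115% (0.000292 to 0.0642%) and 0.0741% (0.0298 to 0.153%). In the aged libraries 0 of 7233, 0 of 8704 and 0 of 6337 fibroblasts qualified, which allows shares of up to 0.0415%, 0.0345% and 0.0473%. The upper ends of the exact 95% intervals were higher, at 0.0510%, 0.0424% and 0.0582%. Intervals and limits cover counting error only. The aged limits lie above the young 3D share, so at 3D a difference between ages was not detectable at this depth. At TN and 14D the aged limit also lay above the lower end of the young interval. The intervals thus overlapped within each temperature, which is not a test of a difference between ages. Pooled over temperatures, 15 of 25412 young cells (0.0590%, exact 95% interval 0.0330 to 0.0973%) and 0 of 22274 aged ones (exact upper bound 0.0166%) qualified. These pooled intervals did not overlap, but cells are not replicates and the pooled values carry no test. With all UMIs counted and no cell left out, 10, 2 and 11 young fibroblasts and 1, 0 and 3 aged ones held 5 or more members.

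Within the fibroblasts, 11 of the 15 cells were Dpp4+, 2 were Cd142+ and 2 had no subclass. Of 13757 Icam1+ preadipocytes 0 qualified, which allows a share of up to 0.0218% (exact upper bound 0.0268%). The 15 cells had a median of 17269 UMIs before thinning against 8620 in the other young fibroblasts, and 3 of them were among the cells with the highest doublet scores, a mark given to 9.61% of all gated fibroblasts. After thinning they held a mean of 2.47 S-phase members and at most 6, against 0.218 in the other young fibroblasts and 0.261 in aged ones. Without the cells with the highest doublet scores, 5, 1 and 6 young fibroblasts of the TN, 3D and 14D libraries (12 of 23058) and 0 of 20091 aged ones held 5 or more G2/M members. With cells thinned to 1000 UMIs they were 6, 1 and 5 young and 0, 0 and 2 aged fibroblasts.

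Those 15 cells, chosen by their G2/M members, held much of the mitotic signal of 25412 young fibroblasts. A high share is thus partly built in for the G2/M members, and not for the S-phase ones. They carried 70.6% of the Mki67 UMIs, 61.4% of those of Top2a, 52.3% of those of Tpx2, 84.2% of those of Cdk1, 70.8% of those of Cenpf (a kinetochore protein) and 62.1% of those of Ube2c. The shares were far lower for other G2/M members, at 17.2% for Ccnb1, 16.2% for Nusap1, 6.30% for Cks2 and 2.75% for Hmgb2. For the S-phase members they ranged from 0% for Ung, a uracil-DNA glycosylase, to 40.0% for E2f8 (8 of 20 UMIs), and were 0.413% for Cdc6 and 0.453% for Pcna.

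**Figure D3:**
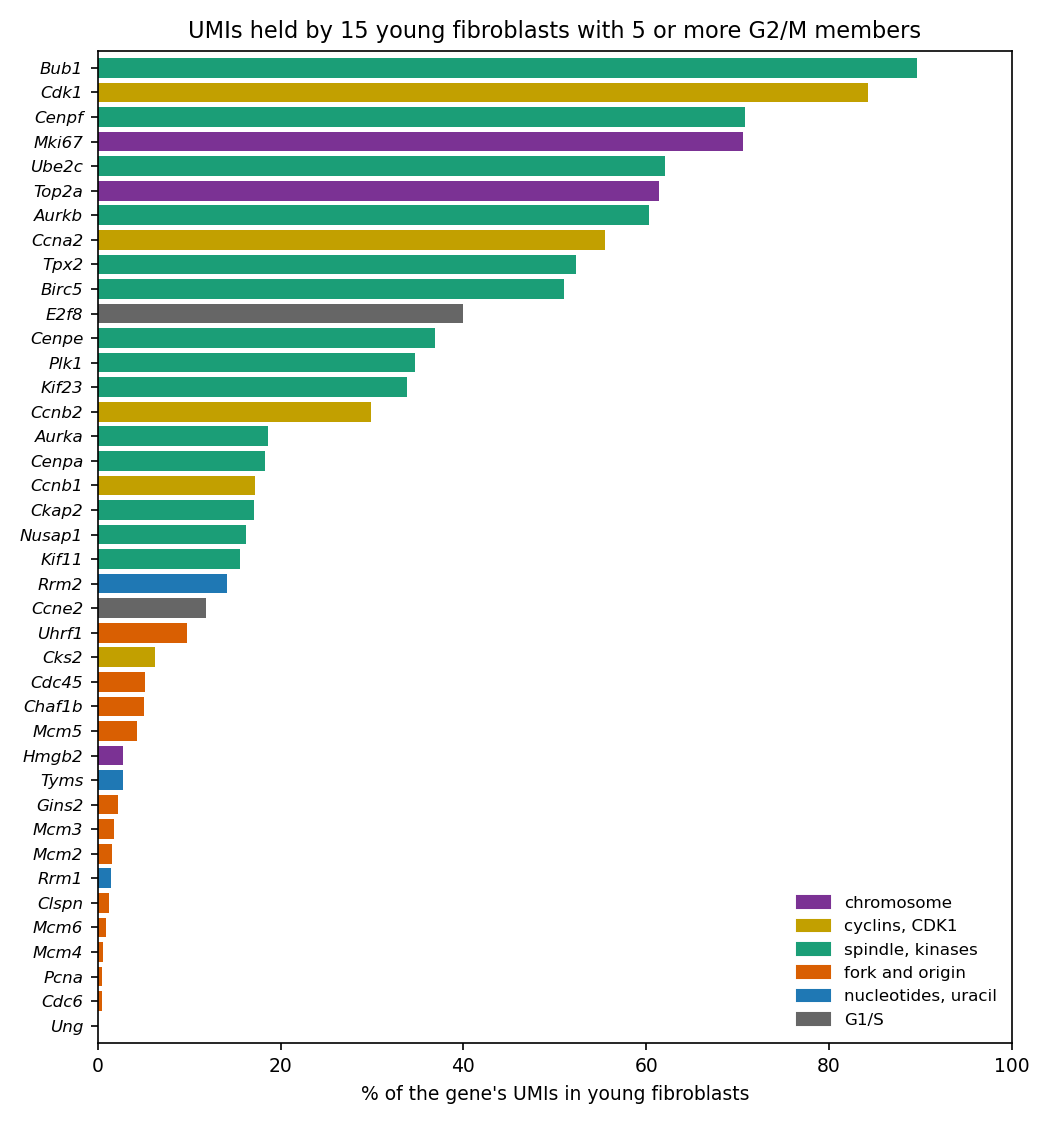
Share of each member's UMIs in young gated fibroblasts (x, percent) that lay in the 15 young cells with 5 or more G2/M members, 1 bar per gene, coloured by role. Bub1, Cdk1, Cenpf and Mki67 are at the top with over 70%, and Mcm4, Pcna, Cdc6 and Ung at the bottom with under 1%. The cells were chosen by the G2/M members, so high shares of these are partly built in.

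With the 15 cells set aside, and levels given as UPM (UMIs per-million UMIs of the summed class, without TMM), Mki67 was at 0.447, 0.331 and 0.611 UPM in the young TN, 3D and 14D libraries and at 0.408, 0.311 and 0.478 in the aged ones, so the ages overlapped. Top2a was then at 1.20, 0.727 and 0.884 in young against 0.686, 0.483 and 0.956 in aged libraries, and Tpx2 at 0.618, 0.410 and 0.468 against 0.315, 0.249 and 0.587. Cdc6 was still at 3.21, 2.96 and 3.33 in young against 6.91, 4.98 and 4.80 in aged libraries, where no library overlapped. These values carry no test, since the cells were chosen by the members themselves.

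The 18 S-phase members summed to 119, 123 and 108 UPM in the young TN, 3D and 14D libraries and 128, 132 and 141 in the aged ones, so every aged library was above every young one. The 22 G2/M members summed to 113, 85.8 and 77.9 UPM in young and 107, 93.7 and 85.0 in aged libraries. For this sum the ages overlapped, and the aged library was the higher at 3D and 14D.

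Hmgb2 and Cks2 made up most of the G2/M sum, and they were set aside after their values were seen. The other 20 G2/M members summed to 32.2, 18.1 and 21.9 UPM in young and 13.2, 11.8 and 14.6 in aged fibroblasts, where the ages did not overlap. Without the 15 cells the young values were 15.8, 14.2 and 13.2, and the ages overlapped. These sums carry no test.

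Age was then tested within each of the 3 fibroblast classes. In Dpp4+ fibroblasts 7 of 34 tested members (20.6%) were called, near the 16.6% of all 13119 genes. Of these, 6 were G2/M members and lower in aged libraries: Mki67 (log2 fold change -2.20), Top2a (-1.73), Ube2c (-1.50), Birc5, which encodes the chromosomal passenger protein survivin (-1.24), Ccnb1 (-0.94) and Cenpf. Cenpf gave 115, 17 and 45 UMIs in young and 2, 8 and 6 in aged libraries and was over the filter's cutoff in no aged library, so it was tested only because of the young ones, and its fitted fold change is not given. Rrm1 was higher in aged libraries, at 34.2, 36.0 and 35.6 CPM in the aged TN, 3D and 14D libraries against 28.2, 25.1 and 22.9 in the young ones (0.48 ± 0.08, SE; edgeR adjusted p = 0.00205). The call of Rrm1 held in all 16 alternatives, with log2 fold changes from 0.40 to 0.58.

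Mki67 gave 142, 7 and 73 UMIs in the young TN, 3D and 14D Dpp4+ fibroblasts and 8, 7 and 7 in the aged ones. The 7 UMIs of young 3D came from 3848 cells, against 2078, 3569 and 3374 cells in aged TN, 3D and 14D. Per cell, young 3D thus lay below every aged library, against the direction of the call. The cells with 5 or more G2/M members held 87.4% of the young Mki67 UMIs in this class. The count of 7 fell to 2 without the young TN library and to 2 without the aged TN library, and was 4 with DESeq2.

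In Icam1+ preadipocytes, the class committed to the adipocyte lineage, Cdc6 and Hmgb2 were called higher in aged libraries and no member lower. These were 2 of 26 tested (7.69%), below the 9.79% of all 12754 genes. Cdc6 gave 61, 80 and 70 UMIs in the young TN, 3D and 14D libraries and 200, 170 and 86 in the aged ones. This came to 3.48, 3.12 and 3.63 CPM in young and 9.53, 7.33 and 7.35 CPM in aged libraries (log2 fold change 1.24 ± 0.15, SE; edgeR adjusted p = 0.00385). In all 16 alternatives the call held, with a log2 fold change from 1.13 to 1.56.

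The UMIs of Cdc6 lay in many cells: 57, 74 and 66 young and 186, 150 and 78 aged Icam1+ preadipocytes held at least 1. At 2000 UMIs a cell, the share with a Cdc6 UMI was 0.685, 0.516 and 0.932% in young and 1.95, 1.19 and 1.77% in aged libraries. In Dpp4+ fibroblasts of the same libraries it was 0.715, 0.806 and 0.799% in young and 1.02, 0.644 and 0.755% in aged ones, where the ages overlapped. No gated class is known to lack Cdc6, so no level of free RNA could be set. The age effect of Cdc6 differed between Icam1+ preadipocytes and Dpp4+ fibroblasts by 1.18 ± 0.17 on the log2 scale (SE; edgeR adjusted p = 0.0126), the only 1 of 35 members called for that difference, against 1.08% of all 13481 genes. It was not called without the young 14D library (adjusted p = 0.0809) or the aged 3D library (adjusted p = 0.0679), nor with cells thinned to 2000 UMIs (adjusted p = 0.151).

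Hmgb2 was at 61.6, 60.7 and 45.1 CPM in young and 88.3, 80.4 and 60.5 CPM in aged Icam1+ preadipocytes (log2 fold change 0.45 ± 0.06, SE; edgeR adjusted p = 0.00671). At each temperature the aged library was the higher, although aged 14D lay below young TN. Hmgb2, with a log2 fold change of 0.36, was the only member called in Cd142+ fibroblasts. This was 1 of 24 (4.17%), below the 7.41% of all 12025 genes. That count was 0 with DESeq2 and without the young 3D or aged 3D library, and 4 without young TN and 3 without aged TN.

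**Figure D4:**
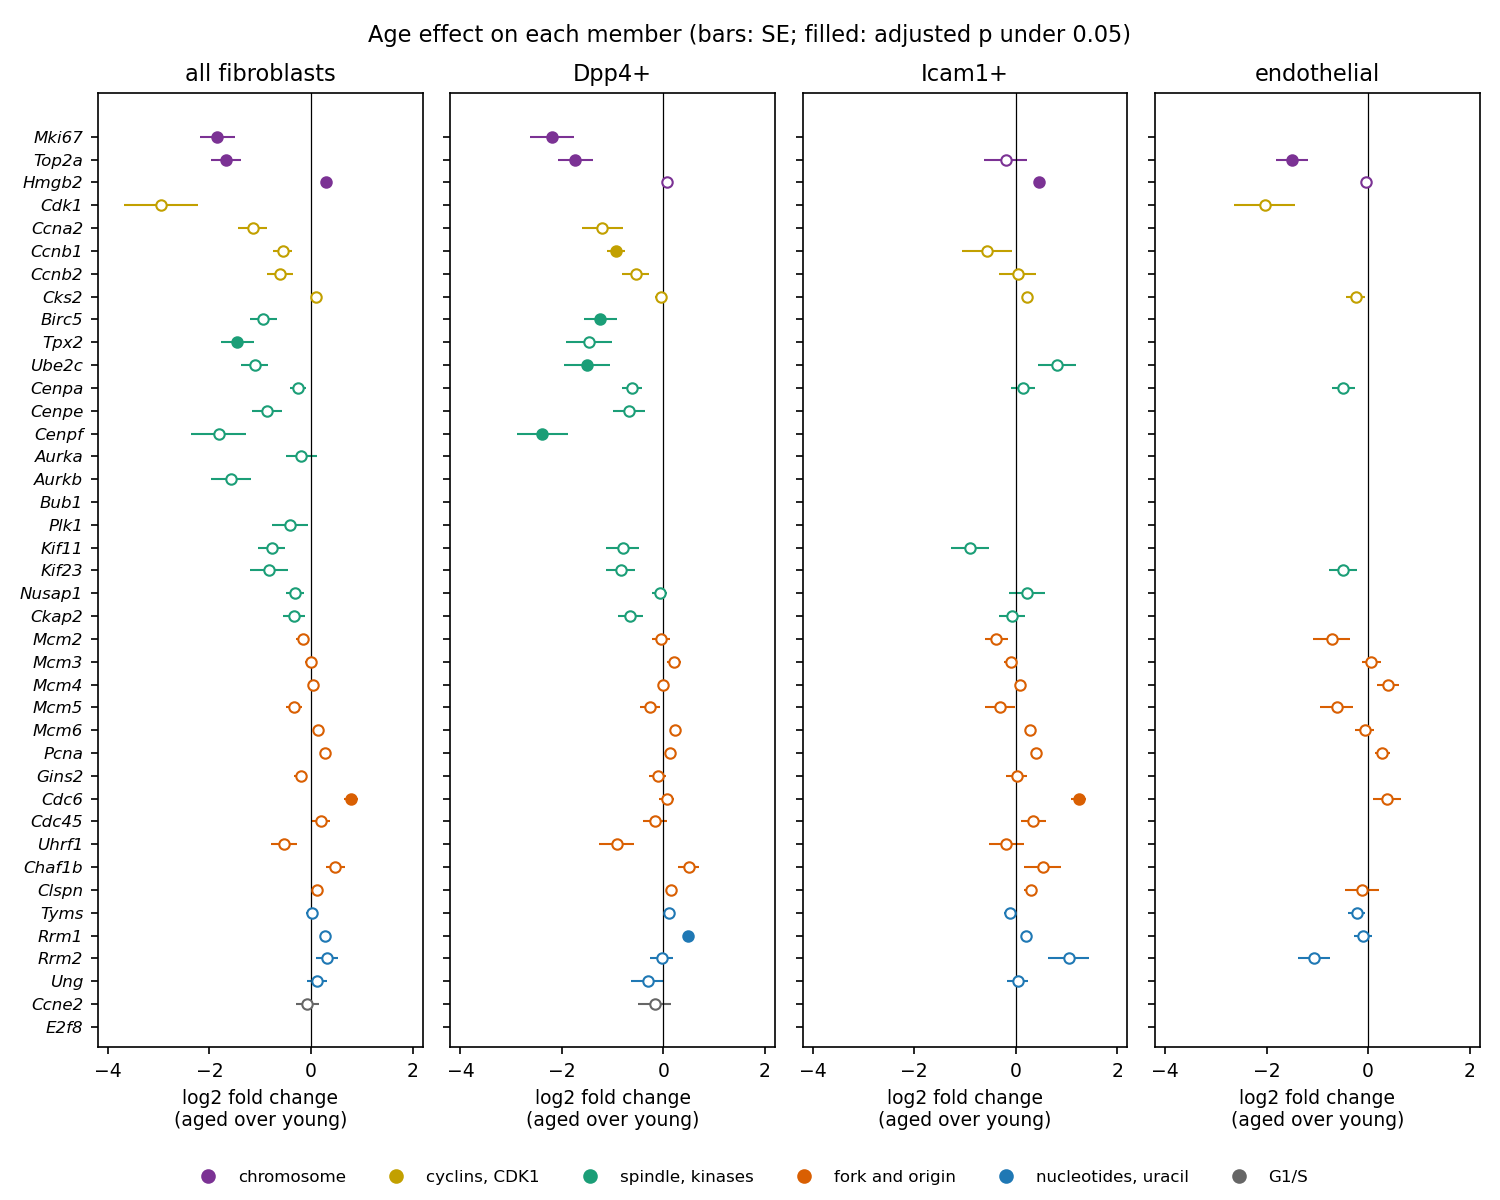
Log2 fold change of aged over young libraries (x) for each member that passed the low-count filter (y, coloured by role) in all fibroblasts, Dpp4+ fibroblasts, Icam1+ preadipocytes and endothelial cells, with SE bars and filled points at an adjusted p under 0.05. Filled G2/M points sit left of 0 in Dpp4+ fibroblasts, and the filled points of Icam1+ preadipocytes, Cdc6 and Hmgb2, sit right of it.

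In endothelial cells Top2a alone was called for age, 1 of 17 tested against 1.37% of all 10351 genes. It was at 12.9, 9.42 and 9.50 CPM in young and 4.77, 1.88 and 4.86 CPM in aged libraries, from 31, 23, 25, 23, 5 and 8 UMIs (log2 fold change -1.50 ± 0.31, SE; edgeR adjusted p = 0.0399). Every young library was above every aged one, and the ages were likewise apart for 16.3% of all genes tested in this class. Of the 3 aged libraries 2 were over the filter's cutoff. The call held without the young TN library only. It was lost when any of the other 5 libraries was left out (edgeR adjusted p from 0.0510 to 0.329) and with DESeq2. Cells with 5 or more G2/M members held 58.2% of the young UMIs of Top2a in this class. Of the endothelial cells, 5 of 1524 young and 0 of 2178 aged cells held 5 or more G2/M members. This was a share of 0.328% (exact 95% interval 0.107 to 0.764%) against at most 0.138%. The exact upper bound for the aged cells was 0.169%, so the exact intervals overlapped. No member's age effect was called as different between endothelial cells and fibroblasts by edgeR or DESeq2 (0 of 38 tested, 3 with an unadjusted p under 0.05, against 0.222% of all 14875 genes).

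Among the few immune cells left by the sort, the share was higher than in fibroblasts and the intervals of the ages overlapped: 5 of 121 young cells (4.13%, exact 95% interval 1.36 to 9.38%) and 4 of 114 aged cells (3.51%, 0.964 to 8.74%) held 5 or more G2/M members. In SMC/pericytes and Schwann cells 1 aged cell each qualified. Over all classes 27 young and 6 aged cells did, and none of those 6 was a gated fibroblast or endothelial cell.

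Cold exposure was tested as a second question, with age in the model. In all fibroblasts edgeR called 0 of 38 members, against 0.337% of all 15134 genes, with 6 at an unadjusted p under 0.05, and DESeq2 called 1. Without young TN the count was 1 and without aged TN 2. The log2 fold changes of 3D over TN were -1.46 ± 0.42 for Mki67 (SE; edgeR adjusted p = 0.203), -1.40 ± 0.37 for Top2a (adjusted p = 0.169) and -0.21 ± 0.06 for Hmgb2, whose 14D value was -0.51 ± 0.06 (adjusted p = 0.0674). Hmgb2 was highest at TN and lowest at 14D at both ages.

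In Dpp4+ fibroblasts 3 of 37 members (8.11%) were called for temperature, near the 5.97% of all 13444 genes. The log2 fold changes over TN were -3.19 ± 0.54 at 3D and -0.93 ± 0.40 at 14D for Mki67 (SE; edgeR adjusted p = 0.0207), -1.96 ± 0.41 and -0.90 ± 0.36 for Top2a (adjusted p = 0.0441), and -0.02 ± 0.20 and -1.06 ± 0.22 for Ccnb1 (adjusted p = 0.0290). Mki67 and Top2a were thus lowest at 3D and Ccnb1 at 14D. In this class 6 of 3636 young TN cells held 5 or more G2/M members. The counts were 0 of 3848 in young 3D and 5 of 5005 in young 14D. With these cells set aside, the G2/M members other than Hmgb2 and Cks2 summed to 17.6, 17.9 and 12.8 UPM in young TN, 3D and 14D. That sum carries no test. The Top2a levels were 6.47, 1.02 and 2.97 CPM at TN, 3D and 14D in young but 0.910, 0.804 and 0.928 CPM in aged libraries, a span seen in the young ones only. No member was called without the young TN library, without the young 3D library or with DESeq2, and leaving out aged TN or aged 14D gave 5 or 1. In Icam1+ preadipocytes Hmgb2 was called (1 of 30, against 2.61% of all 13112 genes), with a log2 fold change of -0.50 ± 0.08 at 14D (SE; edgeR adjusted p = 0.0346), and was not called without young TN, young 3D, aged TN or aged 3D, while 2 members were called without either 14D library. In endothelial cells 0 of 23 members were called by edgeR or DESeq2, against 1.42% of all 10666 genes, with 5 at an unadjusted p under 0.05.

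The members were also compared between cell classes, where most genes were called. Between Icam1+ preadipocytes and Dpp4+ fibroblasts of the same libraries 18 of 30 members (60%) were called, against 68.9% of all 12868 genes. Of these, 10 were lower and 8 higher in Icam1+ preadipocytes. Nusap1 had a median of 3.02 UPM over the 6 libraries in Dpp4+ fibroblasts (2.35 to 3.44) and 0.688 in Icam1+ preadipocytes (0.377 to 0.869), lower in all 6 libraries (log2 fold change -2.19 ± 0.17, SE; edgeR adjusted p = 2.35e-06). Rrm1 had medians of 31.2 (22 to 36.3) and 12.9 (9.31 to 15) UPM, again without overlap. Ung was the reverse, at a median of 0.685 UPM (highest 0.906) and 2.79 (highest 3.23), and was higher in Icam1+ preadipocytes in all 6 libraries (1.86 ± 0.19, SE).

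Kif11 and Kif23, 2 mitotic kinesins, differed in opposite directions, 0.89 and -1.73 in log2 fold change of Icam1+ over Dpp4+. Top2a (-1.90), Ccnb1 (-1.80), Birc5 (-1.28) and Ube2c (-1.26) were lower in Icam1+ preadipocytes, which held no cell with 5 or more G2/M members. Cd142+ fibroblasts differed from Dpp4+ fibroblasts in 10 of 26 members (38.5%), against 59.7% of all 12251 genes, with Nusap1 (-1.34) and Rrm1 (-0.67) lower and Ung (1.11) higher, as in Icam1+ preadipocytes.

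Endothelial cells held more of most members than fibroblasts of the same libraries. Of 36 tested, 21 were called higher and 3 lower (66.7% in all), against 74% of all 13727 genes, of which 4792 were higher and 5371 lower, and the median log2 fold change was 0.92 against -0.04 over all genes. Cdk1 had a median of 5.62 UPM in endothelial cells (0.361 to 9.95) and 0.294 in fibroblasts (0 to 0.918), a log2 fold change of 3.58 ± 0.36 (SE). These ranges overlapped, and cells with 5 or more G2/M members held 58.9% of the endothelial Cdk1 UMIs. Kif23, a kinesin of the central spindle, had medians of 7.43 (5.33 to 13.5) and 0.614 (0.334 to 1.21), with no overlap (3.44 ± 0.23, SE), and Cenpa of 10.1 (7.22 to 17.2) and 2.01 (1.40 to 2.19). Among S-phase members Ccne2 (2.60), Mcm5 (1.43), Mcm3 (1.40) and Tyms (1.29) were higher in endothelial cells in all 6 libraries, while Clspn, a mediator of the replication checkpoint, (-0.83) and Rrm1 (-0.35) were lower, as was Kif11 (-1.60).

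**Figure D5:**
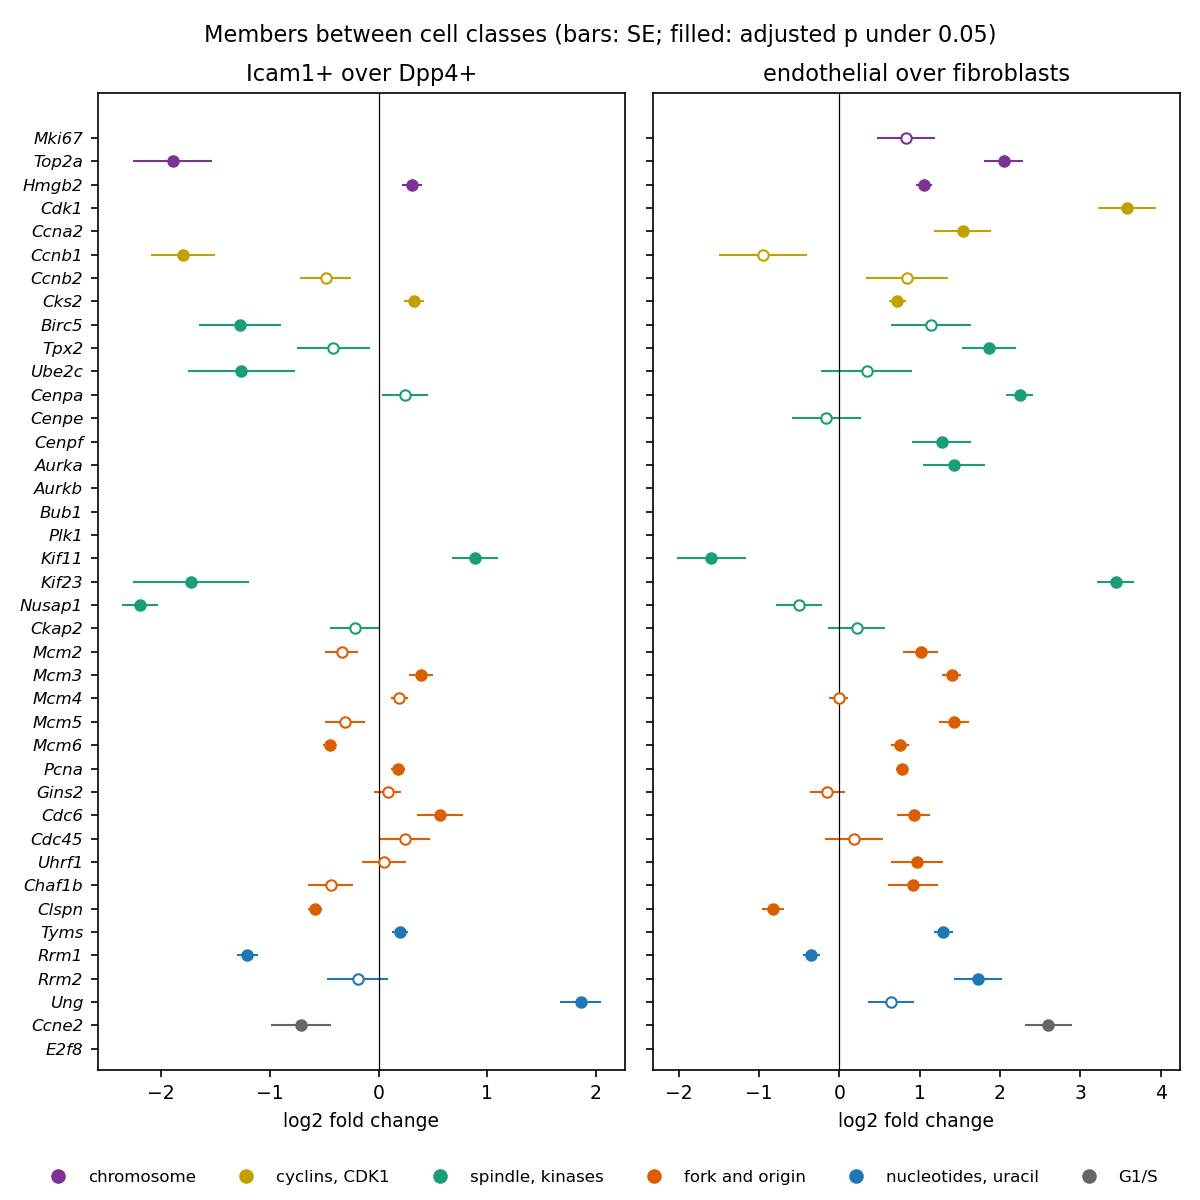
Log2 fold change (x) of Icam1+ preadipocytes over Dpp4+ fibroblasts (left) and of endothelial cells over all fibroblasts (right) for each member tested (y, coloured by role), from sums per library paired by library, with SE bars and filled points at an adjusted p under 0.05. Nusap1 and Ung lie farthest from 0 on the left, and 21 filled points lie right of 0 and 3 left of it on the right.

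Other genes of the pathway were counted as 3 lists. Of 29 tested further G2/M genes, 3 were called lower with age in fibroblasts and none higher, which is 10.3% against 9.76% of all genes and so near the background. They were Racgap1, which acts in cytokinesis (log2 fold change -1.71), Spc25 of the NDC80 kinetochore complex (-1.61) and Hmmr, a spindle-associated hyaluronan receptor. Hmmr gave 43, 28 and 48 UMIs in young and 2, 1 and 3 in aged libraries and was over the filter's cutoff in young libraries only, so its call and fitted fold change are no support for a difference, and Spc25 was over it in 2 of 3 aged libraries. The median log2 fold change of the 29 was -0.29, against -0.00 over all genes. Of 28 further S-phase genes Nasp, a histone chaperone, was called higher (0.40) and E2f1 lower (-0.45), a share of 7.14% against the same 9.76%.

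Of 16 G1 cyclins, their kinases and CDK inhibitors, 5 were called higher with age in fibroblasts and none lower, against 9.76% of all genes called. The log2 fold change was above 0 for 9 of the 16 and below 0 for 7, with a median of 0.06. By edgeR 3 were lower at an unadjusted p under 0.05. Cdkn2a, which encodes the senescence-linked inhibitors p16 and p19, gave 17, 7 and 9 UMIs in young and 125, 99 and 70 in aged libraries (edgeR adjusted p = 0.00153), and was over the filter's cutoff in 1 young and all 3 aged libraries. Cdk6, a partner of the D cyclins, was at 2.01 ± 0.294 and 8.30 ± 1.55 CPM (SD, n = 3 each; 2.04 ± 0.10, SE; edgeR adjusted p = 0.000773). The inhibitor genes Cdkn2c (0.96), Cdkn1c (0.35) and Cdkn2b (1.11) rose as well, the last named after its value was seen. All 3 aged libraries were above all 3 young ones for Cdkn2a and Cdk6. In the same list 3 genes were called higher and 1 lower of 16 in Dpp4+ fibroblasts, against 16.6% of all genes called. In Icam1+ preadipocytes 5 of 16 were called higher, against 9.79%, and in Cd142+ fibroblasts 5 of 16, against 7.41%. In endothelial cells 2 were called higher and 1 lower of 14, against 1.37%. In Dpp4+ and Cd142+ fibroblasts 1 of the genes called higher, Cdkn2a, was over the filter's cutoff in aged libraries only.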

How the data were processed

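Single-cell RNA-seq was analysed in 6 libraries, 1 per age and temperature. The authors sorted live CD45- cells, prepared 10x Genomics 3′ libraries and made UMI counts per gene and barcode with Cell Ranger 3.1.0 on the mm10 transcriptome. The deposited values are these raw counts. Per the study's methods, the authors later used R 4.1.1 and Seurat and regressed out cell cycle state, a step not applied here.

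Barcodes with more than 200 genes and within 3 median absolute deviations for UMIs, genes and mitochondrial share in each library were kept. Classes were gated by at least 3 detected markers, 2 more than any other class. Doublet scores (Scrublet in scanpy 1.11.5) removed no cell in the reported values. Raw counts were summed per library and class and tested across all genes passing filterByExpr (a minimum level in at least 3 libraries for age) with edgeR 4.0.16 (R 4.3.3; quasi-likelihood F test, TMM, Benjamini-Hochberg, 0.05). Age was fitted with temperature and temperature with age, leaving 2 residual degrees of freedom, and classes with the library as a block. DESeq2 1.42.0 and other gates, filters, depths and left-out libraries were alternatives. SE is the log2 fold change over the root of F. The fits were tested on simulated data.

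The members and lists were chosen with earlier results of these data known. Named with values in every library were members called in all fibroblasts and, as fewer than 8 were, the 2 members of each role with the most UMIs. Members called in another class only were named with fold changes, and at most 4 genes of each further list. Cdk1, Ube2c, Cenpf, Kif11, Kif23, Ung and Mcm6 were also described after their values were seen. Reads shared with near-identical gene copies could lower counts of any member. Gene positions are from GENCODE vM21 and promoter sequences from RefSeq, both on GRCm38.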

Additional observations from a re-analysis of the deposited data

Results flagged for a closer look

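The age effect of Cdc6 differed between 2 cell classes of the same libraries. On the log2 scale it was 1.18 larger in Icam1+ preadipocytes than in Dpp4+ fibroblasts, by the interaction term of edgeR's quasi-likelihood fit (adjusted p = 0.0126). In Icam1+ preadipocytes Cdc6 was higher in the aged library at 3 of 3 temperatures. Over 14 alternatives the difference ranged from 1.14 to 1.39, and in 11 of them it was called.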

How the results depend on the processing

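Over 73 results for single members and 1035 alternatives, 877 kept direction and side of the threshold, 158 kept direction only and 0 reversed. Without the low-count filter the counts of called members for age were 10 in fibroblasts, 15 in Dpp4+, 3 in Cd142+ and 5 in endothelial cells, for temperature 1 in fibroblasts, 11 in Dpp4+, 2 in Icam1+ and 3 in endothelial cells, and 2 for the age effect that differs between Icam1+ and Dpp4+. With DESeq2 they were 8, 4 in Dpp4+, 0 in Cd142+ and 0 in endothelial cells for age, and 1 in fibroblasts and 0 in Dpp4+ for temperature. With cells thinned to 2000 UMIs they were 2, 1 in Dpp4+, 0 in Cd142+ and 0 in endothelial cells for age, 1 in fibroblasts and 1 in Dpp4+ for temperature, 9 (Icam1+) and 6 (Cd142+) against Dpp4+, where fewer members passed the filter, and 0 for the age effect that differs between Icam1+ and Dpp4+. Without the temperature term the age counts were 0, 1 in Dpp4+, 1 in Icam1+, 0 in Cd142+ and 0 in endothelial cells, and without the age term the temperature counts were 0 in Dpp4+ and 0 in Icam1+. All barcodes over 200 genes gave 9 in fibroblasts, 0 in Cd142+ and 0 in endothelial cells for age. Fixed cell limits gave 11, 3 in Cd142+ and 0 in endothelial cells for age and 1 in fibroblasts for temperature. At most 1 marker of another class, chosen after seeing the data, gave 3, 3 in Dpp4+, 2 in Cd142+ and 0 in endothelial cells for age, and 1 in Dpp4+ for temperature.

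Leaving out 1 library at a time gave 1 to 5 (fibroblasts), 2 to 9 (Dpp4+), 2 to 3 (Icam1+), 0 to 4 (Cd142+) and 1 to 3 (endothelial) for age, 0 to 2, 0 to 5, 0 to 2 and 0 to 0 (fibroblasts, Dpp4+, Icam1+, endothelial) for temperature, 15 to 18, 9 to 11 and 23 to 26 between classes, and 0 to 3 and 0 to 0 for age effects that differ between classes. These ranges count members, which need not be those called in the main fit. In endothelial cells the age call of Top2a was lost in 5 of these runs, where other members made up the counts. Apart from thinning and the left-out term, where the construction sets depth and error, the cause of the changed counts was not tested. The mean share of aged fibroblasts with many G2/M members was 0.0243% at 3 or more members, 0.0145% unthinned and 0.00752% thinned to 1000 UMIs, against 0. Low counts limit most G2/M members, with under 1000 UMIs each over all fibroblasts except Hmgb2 and Cks2.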
